A study of Homo sapiens with 4 samples.

Results

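The transcripts of the human mitochondrial genome were compared between naïve human embryonic stem cells (ESCs) grown in 2-D and in 3-D culture. The members were all 37 genes of the mitochondrial chromosome whose GENCODE symbol starts with MT-, of 60564 genes counted, namely 13 protein genes, 22 tRNA genes and 2 rRNA genes. RNA-seq was performed on Elf1 cells, a naïve human ESC line, with 2 libraries from independent biological replicates in each condition, so 4 libraries were compared. The 2-D grown cells adhered to coated plates. The 3-D grown cells were embedded as single cells in scaffolds self-assembled from PEG-8-SH and PEG-8-Acr and kept there for 21 days. Both conditions used the same ESC expansion medium, with FGF2, CHIR99021, PD03296501 and human LIF. By the study's methods the line was kept on mouse feeder cells and moved to Matrigel before encapsulation. The methods do not state on which of these surfaces the sequenced 2-D cells grew. All values come from 1 cell line, and the labels give no difference in genotype or added agents between the conditions. By the study's account the 2-D cultures were passaged every few days, whereas the scaffolds were kept for 21 days, so culture format and time since passage cannot be told apart.

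The mitochondrial genome is a small circular molecule without introns that encodes only core subunits of the respiratory chain and the tRNAs and rRNAs needed to translate them. Each strand is transcribed as a long precursor, and the tRNAs, which lie between most of the protein and rRNA genes, mark the places where the precursor is cut into single RNAs. The transcript copied from the heavy strand carries both rRNAs, 12 of the 13 protein genes and 14 tRNAs. The light-strand transcript carries MT-ND6 and 8 tRNAs. All other subunits of the respiratory chain, and all proteins that transcribe, cut and protect these RNAs, are made from nuclear genes.

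Counts of all genes summed to between 18276147 and 33833778 per library, with the 2 deeper libraries in 2-D, and all 6 pluripotent cell markers (POU5F1, NANOG, SOX2, LIN28A, DPPA4 and TDGF1) were above 1 normalized CPM in each library. Of the 6 naïve state markers, 4 were above 1 CPM in every library, while KLF17 and DPPA5 were at or near 1 CPM or lower, which goes against part of the naïve label. All 3 mesoderm markers (TBXT, MIXL1 and EOMES) were above 1 CPM in every library, with sums of 65.5 to 70.1 CPM. Of the 3 neural ectoderm markers 1, NES, was, and the list summed to 577 to 603 CPM. The 3 endoderm markers, with 0 above 1 CPM in every library, summed to 1.19 to 1.43 CPM in 2-D and 1.79 to 2.82 CPM in 3-D grown cells. Of the 6 fibroblast markers, 4 were above 1 CPM in every library and LUM and DCN were not, and the list summed to 450 to 457 CPM in 2-D and 460 to 502 CPM in 3-D grown cells. COL1A1, COL3A1 and POSTN of that list passed the test as higher in 3-D grown cells, where 4.54% of all genes tested were called higher. COL1A2 had 325 and 316 CPM in 2-D and 301 and 325 CPM in 3-D grown cells and did not pass. LUM and DCN had too few counts to be tested. The part of these genes in the results below was not tested. Depth was the lowest for 3-D replicate 2.

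Mitochondrial genes took 5.30% and 5.10% of all counts in 2-D and 8.50% and 8.33% in 3-D grown cells. The share was larger in both 3-D libraries than in both 2-D libraries, with means of 5.20 ± 0.141% and 8.41 ± 0.123% (SD, n = 2 each). An exact permutation test of 2 against 2 libraries cannot go below a two-sided p of 0.333, which is the value it gave. Nearly all of these counts fell on the 13 protein genes, which held 1516340 to 1791566 counts per library, against 5232 to 10824 counts on the 22 tRNA genes. In bulk RNA, a change in the number of cells of a type and a change in RNA per cell cannot be told apart.

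All 13 protein genes had a positive log2 fold change (FC), always given as 3-D relative to 2-D, and 12 of them passed edgeR's quasi-likelihood test at a Benjamini-Hochberg adjusted p below 0.05. Over all 22555 genes tested the same test called 4.54% as higher and 3.36% as lower in 3-D grown cells. The median log2 FC of the 13 genes was 0.76, where that of all genes tested was -0.00014. Summed over the 13 genes, normalized CPM were 51753 and 49369 in 2-D and 87170 and 84585 in 3-D grown cells, a 1.70-fold higher level. In 12 of the 13 genes both 3-D libraries lay above both 2-D libraries, which was true of 25.4% of all genes tested, and in 0 of the 13 did they lie below, which was true of 25.1%. MT-ATP8 was the exception. The plot of fold changes in genome order shows the protein genes close together above 0, with the tRNAs scattered around them.

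**Figure D1:**
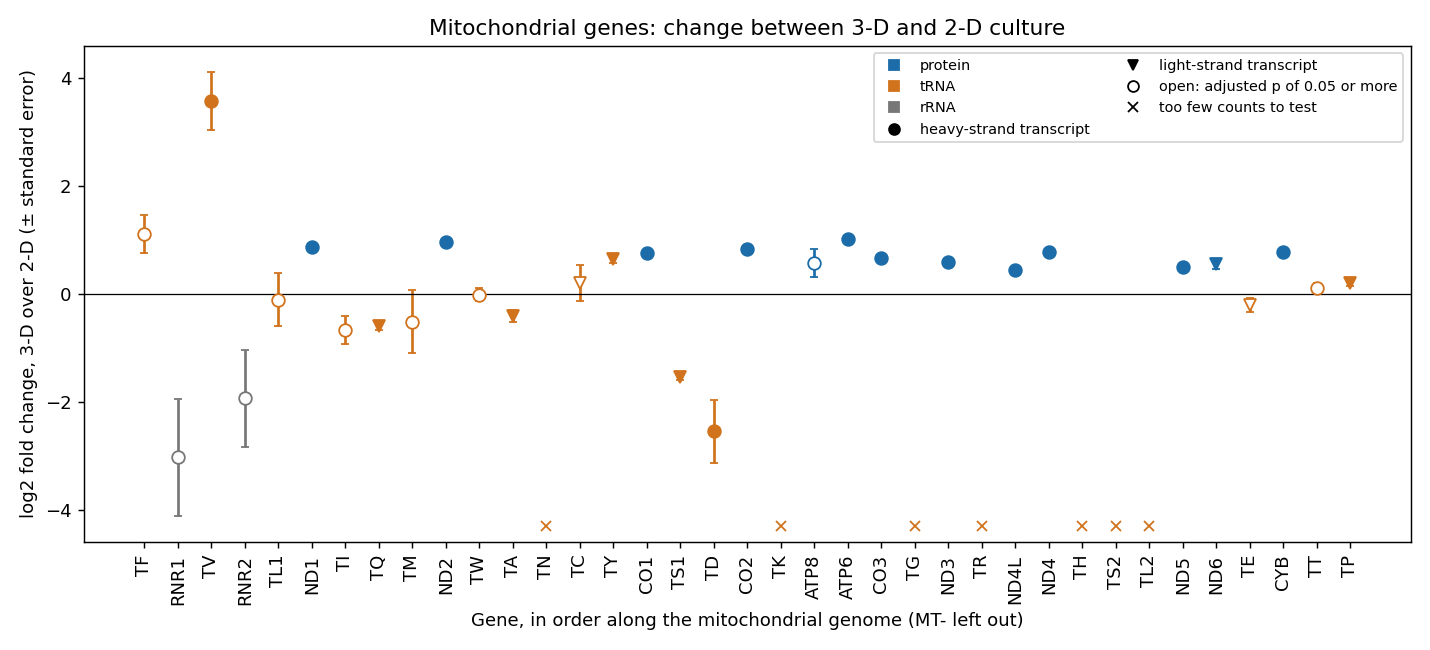
Log2 FC, 3-D relative to 2-D, (y axis, bars are SEs from edgeR) for the 37 mitochondrial genes in genome order (x axis), with proteins in blue, tRNAs in orange and rRNAs in grey, and circles and triangles for heavy-strand and light-strand transcripts. The 13 proteins lie between 0.44 and 1.03, open symbols did not pass the test, and crosses mark the 7 tRNAs with too few counts to be tested.

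Complex I, the NADH dehydrogenase that feeds electrons into the chain, has 7 of its subunits encoded here, and all 7 were called higher. MT-ND2 (chrM:4470-5511, plus strand of hg38) had 2995 and 2765 normalized CPM in 2-D grown cells and 5649 and 5571 CPM in 3-D grown cells. Its log2 FC of 0.96 (standard error, SE, 0.04, edgeR, Benjamini-Hochberg adjusted p = 1.79e-08) was the largest of the 7. MT-ND1 (chrM:3307-4262) followed, with 3459 and 3312 against 6259 and 6178 CPM and a log2 FC of 0.88 (SE 0.03). In both genes the replicates were far closer to each other than the conditions were. MT-ND4 (chrM:10760-12137), the most abundant of the 7, had 8455 and 7931 CPM in 2-D and 14533 and 13668 CPM in 3-D grown cells. MT-ND5 (chrM:12337-14148), which forms part of the proton-pumping arm, had 5738 and 5493 against 8222 and 7633 CPM, a log2 FC of 0.50 (SE 0.04, edgeR, Benjamini-Hochberg adjusted p = 9.10e-06). It is the longest protein gene of the genome, at 1812 bases, and its change was among the smallest.

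The other 3 complex I subunits had fewer CPM, a scale that is not adjusted for gene length. MT-ND3 (chrM:10059-10404) had 703 and 612 CPM in 2-D and 1069.6 and 916 CPM in 3-D grown cells. MT-ND4L (chrM:10470-10766) had 789 and 701 against 1111 and 915 CPM, and its log2 FC of 0.44 (SE 0.07) was the smallest of the 13 genes. With DESeq2 in place of edgeR its Benjamini-Hochberg adjusted p was 0.0650. MT-ND6 (chrM:14149-14673, minus strand), the sole protein gene of the light strand, had 1794 and 1645 CPM in 2-D and 2838 and 2205 CPM in 3-D grown cells. Its log2 FC was 0.55 (SE 0.08, edgeR, Benjamini-Hochberg adjusted p = 0.00150). MT-ND6 was thus called in the same direction as the 11 called genes of the heavy strand. The strand setting of the counting is not given in the sources used here, so its counts may include reads from the heavy-strand transcript.

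MT-CYB (chrM:14747-15887), the catalytic cytochrome b of complex III, had 3758 and 3558 CPM in 2-D and 6373 and 6142 CPM in 3-D grown cells, a log2 FC of 0.77 (SE 0.03, edgeR, Benjamini-Hochberg adjusted p = 5.26e-08). The 3 subunits of cytochrome c oxidase, complex IV, build the core in which oxygen is reduced. MT-CO1 (chrM:5904-7445) was the most abundant gene of the genome by counts, with 9952 and 9914 CPM in 2-D and 15863 and 17698 CPM in 3-D grown cells. MT-CO2 (chrM:7586-8269) had 4256 and 4101 against 7651 and 7302 CPM. MT-CO3 (chrM:9207-9990) had 5213 and 5109 against 8279.9 and 8131 CPM. The log2 FCs of the 3 genes were 0.76, 0.84 and 0.67 (SEs 0.04, 0.03 and 0.03), and in each the conditions did not overlap.

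**Figure D2:**
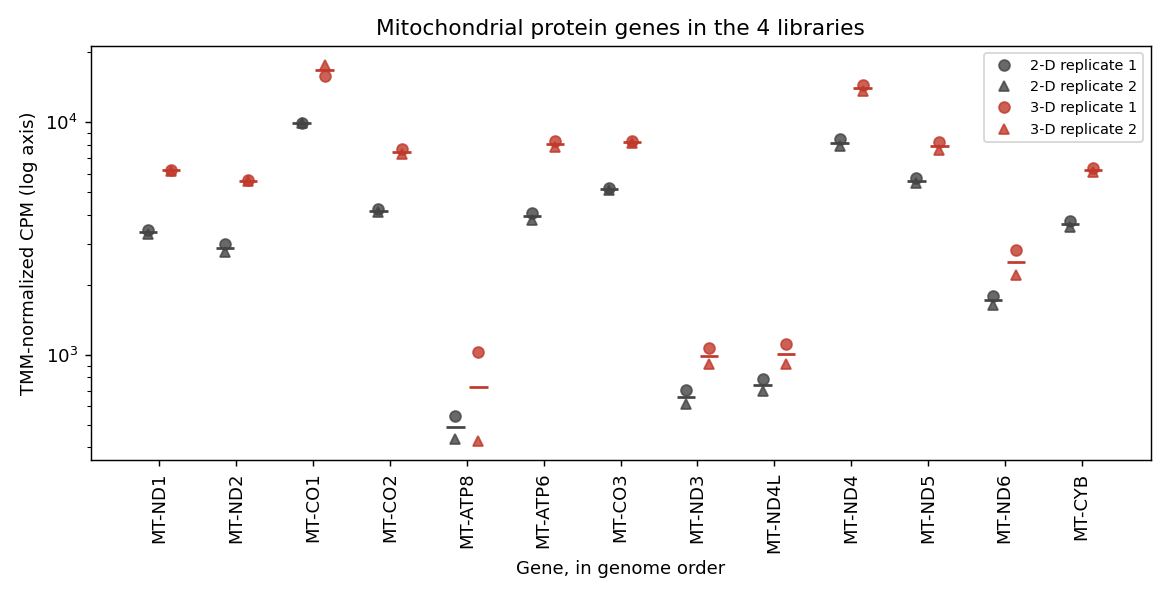
TMM-normalized CPM on a log axis (y axis) of the 13 mitochondrial protein genes in genome order (x axis), with 2-D libraries in grey, 3-D libraries in red, circles and triangles for replicates 1 and 2, and lines at the means. The 3-D libraries lie above the 2-D libraries in 12 genes, and MT-ATP8 has 1 low 3-D library at 426 CPM.

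The ATP synthase uses the proton gradient to make ATP, and both of its mitochondrial subunits belong to the membrane part. MT-ATP6 (chrM:8527-9207) had 4097 and 3792 CPM in 2-D and 8290.0 and 7800.4 CPM in 3-D grown cells. Its log2 FC of 1.03 (SE 0.04, edgeR, Benjamini-Hochberg adjusted p = 1.79e-08) was the largest among the 13 proteins. MT-ATP8 (chrM:8366-8572) had 545 and 436 CPM in 2-D and 1032 and 426 CPM in 3-D grown cells, so that 3-D replicate 2 lay below both 2-D libraries. Its log2 FC was 0.57 (SE 0.26, edgeR, Benjamini-Hochberg adjusted p = 0.233). Without 3-D replicate 1 it became -0.20 with an adjusted p of 0.0135 by edgeR, and without 3-D replicate 2 it was 1.07 and passed, so the direction of MT-ATP8 rests on single libraries. It also passed without 2-D replicate 1, at 0.74.

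MT-ATP8 and MT-ATP6 are read from a shared messenger RNA, as are MT-ND4L and MT-ND4, and in each pair the reading frames overlap. The overlaps are shown because their bases belong to both genes. How the counting treated reads that touch both genes is not given in the sources used here, and it could affect the ratios below. In each line the capitals mark the start codon of the downstream gene and the stop codon of the upstream gene, and the sequence is the plus strand of hg38. The MT-ND4L/MT-ND4 line shows 25 bases, of which the overlap is only chrM:10760-10766, with flanking bases on both sides.
MT-ATP8/MT-ATP6 (chrM:8527-8572): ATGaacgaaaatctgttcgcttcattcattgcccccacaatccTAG
MT-ND4L/MT-ND4 (chrM:10751-10775): cctactccaATGcTAAaactaatcg

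The overlap takes 46 bases, or 22.2%, of MT-ATP8 and 7 bases, or 2.36%, of MT-ND4L. Counts of MT-ATP8 per 100 counts of MT-ATP6 were 13.3 and 11.5 in 2-D and 12.4 and 5.46 in 3-D grown cells, so the conditions overlapped. For MT-ND4L per 100 counts of MT-ND4 they were 9.33 and 8.84 in 2-D and 7.65 and 6.70 in 3-D grown cells, lower in both 3-D libraries (exact permutation test, two-sided p = 0.333, the smallest the design allows). With all 4 libraries the shorter gene of each pair had the smaller fold change, and without 3-D replicate 2 MT-ATP8 was at 1.07.

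MT-ATP8, MT-ND4L and MT-ND3 are the 3 protein genes of at most 350 bases, and they were also the genes with the lowest counts. Their log2 FCs of 0.44 to 0.59 compare with 0.50 to 1.03 for the 10 longer genes. They were lower in replicate 2 than in replicate 1 of both conditions, by a log2 ratio of -0.17 to -0.32 in 2-D and of -0.22 to -1.28 in 3-D grown cells. For the 10 longer genes that ratio ran from -0.12 to -0.0055 in 2-D and from -0.36 to 0.16 in 3-D grown cells. Nuclear genes moved with length as well in 3-D, where 54 nuclear genes longer than 250 and up to 350 bases had a median log2 ratio of replicate 2 over replicate 1 of -0.21 and 30 genes longer than 150 and up to 250 bases had -0.11, while 11305 genes over 2000 bases had 0.0063. In 2-D the medians of the same length classes were -0.011, 0.012 and -0.0014. The medians of the log2 ratio of 3-D over 2-D in these classes were 0.042, -0.0064 and 0.0077, and that of 42 nuclear genes of at most 150 bases was -0.086. Those 42 genes had a median log2 ratio of replicate 2 over replicate 1 of -0.29 in 3-D and -0.060 in 2-D. All mitochondrial tRNA genes fall in the class of at most 150 bases. The part of gene length in the fold changes of the short protein genes and of the tRNA genes was not tested.

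**Figure D3:**
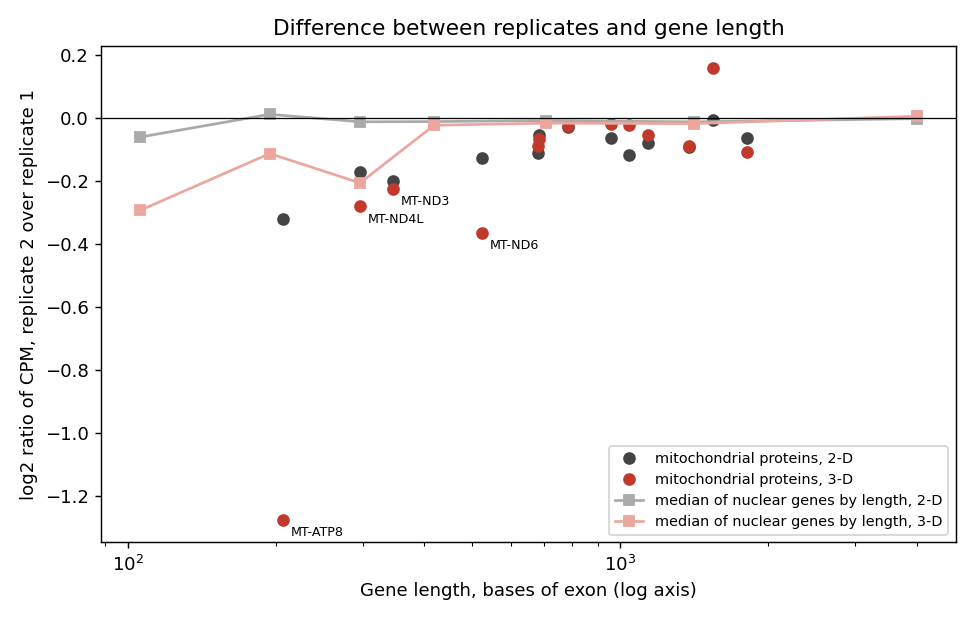
Log2 ratio of normalized CPM in replicate 2 over replicate 1 (y axis) against gene length on a log axis (x axis), for the 13 mitochondrial proteins (circles) and as medians of nuclear genes by length class (squares joined by lines), with 2-D in grey and 3-D in red. In 3-D grown cells MT-ATP8, at 207 bases, has the lowest ratio, -1.28, and the medians of nuclear genes of at most 350 bases lie below 0.

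The levels per kilobase of gene allow the 13 genes to be ranked against each other. In 2-D grown cells 5 genes formed an upper tier, from 6583 ± 93.4 CPM per kilobase for MT-CO3 through MT-CO1, MT-CO2 and MT-ND4 to 5792 ± 317 for MT-ATP6 (SD, n = 2). The 8 others lay between 1901 ± 185 for MT-ND3 and 3541 ± 109 for MT-ND1. The same 5 genes were highest in 3-D grown cells, at 10233 to 11814 CPM per kilobase, and the 8 others at 2869 to 6505. MT-ATP6, the fifth in 2-D, had the highest mean in 3-D grown cells, at 11814 ± 508 CPM per kilobase. Its libraries there, at 12173 and 11454, lay above those of the next gene, MT-CO2, at 11185 and 10676, and overlapped with those of MT-CO1, at 10288 and 11477. MT-CO2 and MT-CO1 overlapped with each other, and no test was made of these ranks. MT-ND2 was the tenth in 2-D and the eighth in 3-D grown cells, while MT-ND6 was the seventh and then the ninth.

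Whether the 13 genes rose by unequal amounts was tested with the sum of their counts as the scaling of each library in place of TMM. In this fit 84.3% of all genes tested were called, 84.1% as lower and 0.195% as higher in 3-D grown cells, since nuclear genes lie below a scale that rose. Its SEs draw on all genes tested and do not measure the spread of the shares alone. For MT-ND1 the SE was 0.07, against 0.03 with TMM. With most genes called, the Benjamini-Hochberg adjustment changes p little in this fit. For MT-ATP6 the p by edgeR was 8.52e-04 before the adjustment and 0.00125 after it. Calls in this fit are therefore held to a weaker correction than those with TMM. As the 13 genes make up the scale, a larger share of some comes with a smaller share of others. Of the 13 protein genes, 2 were called higher and 4 lower than the sum. MT-ATP6 had 7.92% and 7.68% of the protein counts in 2-D and 9.51% and 9.22% in 3-D grown cells, a relative log2 FC of 0.26 (SE 0.07, edgeR, Benjamini-Hochberg adjusted p = 0.00125). MT-ND2 had 5.79% and 5.60% against 6.48% and 6.59%, a relative change of 0.20 (SE 0.07). For both genes the 3-D libraries lay above the 2-D libraries.

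MT-ND5, MT-ND4L, MT-ND6 and MT-ND3 were called lower than the sum. The share of MT-ND5 was 11.1% in each 2-D library and 9.43% and 9.02% in 3-D, a relative log2 FC of -0.27 (SE 0.08, edgeR, Benjamini-Hochberg adjusted p = 0.00132). MT-ND4L had a relative change of -0.32, MT-ND6 of -0.21 and MT-ND3 of -0.17. The other 7 genes, among them MT-CO1 at -0.0069, MT-CYB at 0.010 and MT-ND4 at 0.019, did not pass. MT-ND4 is read from a messenger RNA shared with MT-ND4L. MT-ND4L and MT-ND3 are among the 3 protein genes of at most 350 bases. The part of gene length and of the counting in these relative values was not tested. Without 3-D replicate 2 only MT-ATP8 passed, at 0.29, where it had been -0.20 with all 4 libraries, and without 3-D replicate 1 MT-ND2, MT-ATP6 and MT-ND5 no longer passed (relative log2 FCs of 0.21, 0.24 and -0.30, Benjamini-Hochberg adjusted p = 0.232, 0.212 and 0.157 by edgeR). MT-ND3 no longer passed without 2-D replicate 1, at -0.10, where MT-ND1 and MT-CO3 passed, at 0.11 and -0.12, and without 2-D replicate 2 MT-ND1 and MT-ATP8 passed, at 0.12 and -0.32. MT-ATP8 also passed without 3-D replicate 1, at -0.94. Along the heavy strand the changes had no single direction, with the relative values of the first genes at 0.11 for MT-ND1 and 0.20 for MT-ND2 and those of the last at -0.27 for MT-ND5 and 0.010 for MT-CYB.

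**Figure D4:**
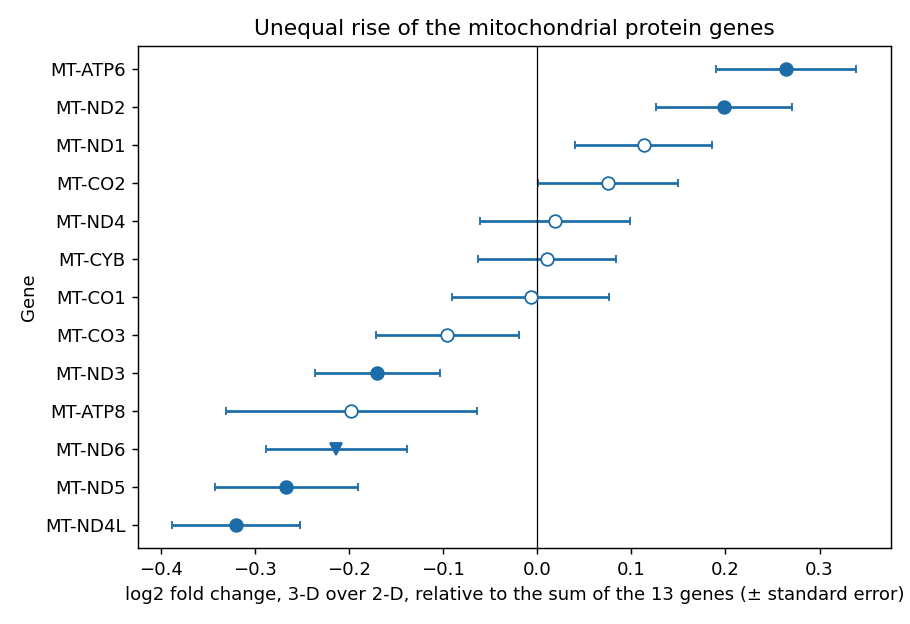
Log2 FC, 3-D relative to 2-D, relative to the summed counts of the 13 mitochondrial protein genes (x axis, bars are SEs from edgeR) for each gene (y axis), with filled symbols for genes that passed the test and a triangle for the light-strand gene MT-ND6. MT-ATP6 lies highest at 0.26 and MT-ND4L lowest at -0.32.

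The summed level of the 22 tRNA genes was not higher in 3-D grown cells. Over all 22, normalized CPM were 314 and 292 in 2-D and 315 and 292 in 3-D grown cells, with means of 303 ± 15.7 and 304 ± 16.7 (SD, n = 2). This sum combines genes that moved in opposite directions. Among them MT-TS1 had means of 74.5 CPM in 2-D and 25.6 CPM in 3-D, and MT-TY had 63.7 and 101 CPM. Per 1000 counts of mitochondrial protein genes there were 6.07 and 5.92 tRNA counts in 2-D and 3.62 and 3.45 in 3-D grown cells, with no overlap (exact permutation test, two-sided p = 0.333). A mature tRNA is shorter than a sequenced read, so counts on a tRNA gene can come from precursors and partly cut RNAs as well as from tRNAs, and these were not separated. Counts of the tRNA genes therefore do not measure the abundance of mature tRNAs.

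Of the 22 tRNA genes, 15 had enough counts to be tested, and 7 of the 15 passed edgeR's test, 3 higher and 4 lower in 3-D grown cells, where 7.9% of all genes tested were called. The genes of these 7 tRNAs are shown because they moved apart although they lie on the same precursors as the proteins, and 5 of them are on the light strand. Each is written 5′ to 3′ along its own strand of hg38, with its anticodon in capitals, found as the centre of a 7-base loop closed by a stem of 5 positions of which at least 4 pair.
MT-TS1, serine, light strand, lower (chrM:7446-7514): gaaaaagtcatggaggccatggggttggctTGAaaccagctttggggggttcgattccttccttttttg
MT-TQ, glutamine, light strand, lower (chrM:4329-4400): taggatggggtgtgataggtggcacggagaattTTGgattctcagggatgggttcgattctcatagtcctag
MT-TA, alanine, light strand, lower (chrM:5587-5655): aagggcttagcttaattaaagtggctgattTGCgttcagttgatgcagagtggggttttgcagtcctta
MT-TD, aspartate, heavy strand, lower (chrM:7518-7585): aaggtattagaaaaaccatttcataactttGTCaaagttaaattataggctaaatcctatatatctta
MT-TY, tyrosine, light strand, higher (chrM:5826-5891): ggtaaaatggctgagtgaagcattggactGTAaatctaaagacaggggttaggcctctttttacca
MT-TP, proline, light strand, higher (chrM:15956-16023): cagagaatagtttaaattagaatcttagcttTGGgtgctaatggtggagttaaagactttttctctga
MT-TV, valine, heavy strand, higher (chrM:1602-1670): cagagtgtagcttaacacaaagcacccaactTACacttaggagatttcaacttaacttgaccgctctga

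MT-TS1, the serine tRNA gene that lies between MT-CO1 and MT-TD, had 78.5 and 70.6 normalized CPM in 2-D and 24.9 and 26.3 CPM in 3-D grown cells, from 472 to 2702 counts per library. Its log2 FC of -1.54 (SE 0.06, edgeR, Benjamini-Hochberg adjusted p = 1.79e-08) was opposite to that of every protein gene. It stayed called with each library left out in turn. MT-TD, the next gene, read from the other strand, had 21 and 20 counts in 2-D and 3 and 1 in 3-D grown cells. From these few counts its ratio of 3-D over 2-D grown cells was 0.165 (95% interval 0.0430 to 0.457, exact, for counting error alone), and it was called lower (edgeR, Benjamini-Hochberg adjusted p = 0.0189). MT-TQ, in the cluster between MT-ND1 and MT-ND2, had 27.8 and 28.7 CPM in 2-D and 20.1 and 17.3 CPM in 3-D grown cells, a log2 FC of -0.59 (SE 0.08, edgeR, Benjamini-Hochberg adjusted p = 7.42e-04).

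MT-TA and MT-TY are the outer members of the light-strand cluster between MT-ND2 and MT-CO1, and they moved in opposite directions. MT-TA had 10.3 CPM in each 2-D library and 8.42 and 7.14 CPM in 3-D grown cells, a log2 FC of -0.40 (SE 0.11, edgeR, Benjamini-Hochberg adjusted p = 0.0400). MT-TY had 63.7 CPM in each 2-D library and 89.0 and 112 CPM in 3-D grown cells, a log2 FC of 0.66 (SE 0.08, edgeR, Benjamini-Hochberg adjusted p = 2.44e-04). The inner members, MT-TN and MT-TC, held at most 44 counts in any library. MT-TP, the outermost gene next to the control region, had 71.6 and 64.0 CPM in 2-D and 81.7 and 74.1 CPM in 3-D grown cells, a log2 FC of 0.20 (SE 0.06, edgeR, Benjamini-Hochberg adjusted p = 0.0456). MT-TV, between the rRNA genes, had 9 counts in each 2-D library and 105 and 26 in 3-D grown cells, which differ from each other by more than the gene's level in 2-D, and its fitted log2 FC was 3.58 (SE 0.54, edgeR, Benjamini-Hochberg adjusted p = 0.00158). Without 3-D replicate 1 it was 2.38 and without 3-D replicate 2 it was 4.19, called in both.

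Not all of these calls were stable to the removal of a library. For MT-TA the Benjamini-Hochberg adjusted p by edgeR rose to 0.104 with 2-D replicate 1 left out, to 0.128 with 2-D replicate 2 left out and to 0.115 with 3-D replicate 2 left out. For MT-TD it was 0.0833, 0.110 and 0.0913 in the same order, and with 3-D replicate 1 left out its log2 FC went from -2.54 to -3.39. For MT-TP it was 0.359 with 2-D replicate 2 left out, 0.130 with 3-D replicate 1 left out and 0.138 when libraries were scaled by their totals alone, and DESeq2 gave 0.0872. Among the 8 tested tRNAs that did not pass was MT-TF, the gene at the start of the heavy-strand transcript, with 14.3 and 9.83 CPM in 2-D and 39.5 and 12.3 CPM in 3-D grown cells. It passed when either 2-D library or 3-D replicate 2 was left out, with log2 FCs of 1.41, 0.88 and 1.71, against 1.12 with all libraries (edgeR, Benjamini-Hochberg adjusted p = 0.0758). Without 3-D replicate 1 it was 0.028, so the higher value of MT-TF rests on that library. MT-TI, MT-TM and MT-TE passed as lower without 3-D replicate 1, at -1.46, -3.76 and -0.42, and MT-TI also passed without 2-D replicate 1, at -0.67. Without 3-D replicate 2 the same 3 genes were at -0.19, 0.33 and -0.034 and did not pass, and MT-TM had 1 count in that library. The remaining 4, MT-TL1, MT-TW, MT-TC and MT-TT, had log2 FCs between -0.11 and 0.21 and did not pass with any library left out.

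**Figure D5:**
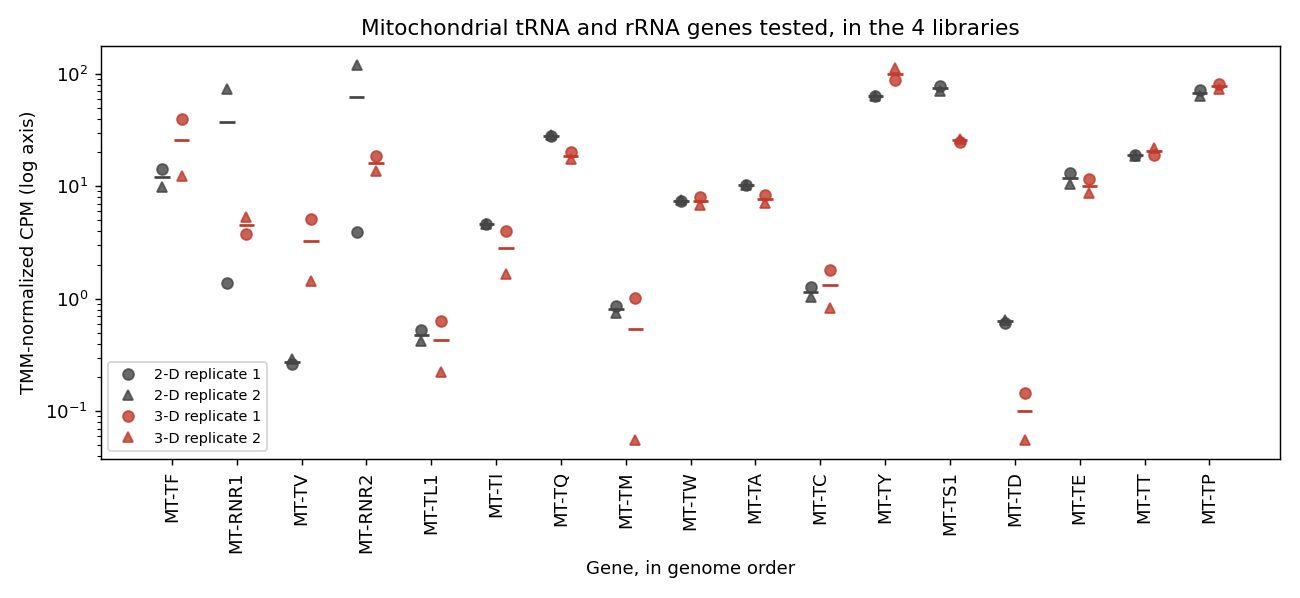
TMM-normalized CPM on a log axis (y axis) of the 15 tested tRNA genes and the 2 rRNA genes in genome order (x axis), with 2-D libraries in grey, 3-D libraries in red, circles and triangles for replicates 1 and 2, and lines at the means. MT-TS1 falls from 78.5 and 70.6 to 24.9 and 26.3, MT-TY lies higher in 3-D, and the rRNAs have 1 high 2-D library.

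Counts of tRNA genes went with their place on the genome. The 3 tRNA genes without a gene of the same strand within 10 bases on either side, MT-TQ, MT-TS1 and MT-TP, had means of 28.3 to 74.5 CPM in 2-D grown cells. The 12 with such a neighbour on 1 side ranged from 0 to 63.7 CPM with a median of 6.04. The 7 that are enclosed on both sides had 0.472 CPM at most. In 3-D grown cells the ranges of the 3 sets were 18.8 to 77.9, 0.0558 to 101 and 0 to 3.28 CPM, so that MT-TY, with a neighbour on 1 side, lay above the genes without one. The 8 light-strand genes, none of which is enclosed on both sides, held 84.8% and 85.2% of the tRNA counts in 2-D and 75.3% and 84.6% in 3-D grown cells. Neither the strand setting of the counting nor its treatment of reads that touch 2 genes is given in the sources used here, and either could set the level of a tRNA gene. The 7 tRNA genes that were not tested, MT-TN, MT-TK, MT-TG, MT-TR, MT-TH, MT-TS2 and MT-TL2, had 0 to 6 counts per library. MT-TG had 0 counts in all 4 libraries, which allows up to 3 counts in each, or 0.0871 to 0.167 CPM, for counting error alone.

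The light-strand transcript as a whole took 3.96% and 3.80% of mitochondrial counts in 2-D and 3.51% and 2.89% in 3-D grown cells, most of it from MT-ND6. The share was lower in both 3-D libraries (exact permutation test, two-sided p = 0.333). With the strand setting of the counting not given, counts on the light-strand genes may include reads from the heavy-strand transcript. Within the light strand, 3 genes were called higher, MT-ND6, MT-TY and MT-TP, and 3 lower, MT-TS1, MT-TQ and MT-TA.

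The mitochondrial rRNAs, which form the core of the ribosome of the organelle, had been depleted from these libraries along with cytoplasmic rRNA, so their counts are what the depletion left. MT-RNR1 (chrM:648-1601), the small subunit rRNA, had 48 and 2241 counts in 2-D and 77 and 96 in 3-D grown cells. MT-RNR2 (chrM:1671-3229), the large subunit rRNA, had 134 and 3720 counts in 2-D and 379 and 245 in 3-D grown cells. In both genes 2-D replicate 2 stood far above the other 3 libraries, while 2-D replicate 1 lay below both 3-D libraries, so the conditions overlapped. Neither passed edgeR's test, with Benjamini-Hochberg adjusted p of 0.121 and 0.237, and MT-RNR1 had an unadjusted p of 0.0161. DESeq2 called neither of them. Their log2 FCs of -3.02 and -1.94 became 1.69 and 2.05 without 2-D replicate 2, and -4.01 and -2.90 without 2-D replicate 1. Each of these fits has a lone 2-D library and does not measure the spread in 2-D. MT-RNR1 also passed as lower without 3-D replicate 1 and without 3-D replicate 2, at -2.77 and -3.29. The 13 protein genes did not stand apart in that library, where they took 5.05% of all counts against 5.27% in 2-D replicate 1, and without it 12 of them were still called higher.

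Copies of parts of the mitochondrial genome lie in the nuclear chromosomes, and reads can be shared between a gene and its copy. Of 404 such copies in the annotation, 40 had enough counts to be tested, and edgeR called 4 of them as higher in 3-D grown cells and 0 as lower, against 4.54% and 3.36% over all genes, with 8 at an unadjusted p below 0.05. DESeq2 called 2 and gave no adjusted p for 37. The copies on chromosome 1 between 629062 and 634922 match their parents at 97.6% to 99.4% of the aligned bases. MTATP6P1, which differs from MT-ATP6 at 10 of 681 bases, is shown beside it because it held the most counts of all copies. The stretch of 120 bases with the most differences holds 4, in capitals.
MT-ATP6 (chrM:8599-8718): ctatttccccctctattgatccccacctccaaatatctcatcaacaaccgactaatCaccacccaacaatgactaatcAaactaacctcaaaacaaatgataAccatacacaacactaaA
MTATP6P1 (chr1:633768-633887): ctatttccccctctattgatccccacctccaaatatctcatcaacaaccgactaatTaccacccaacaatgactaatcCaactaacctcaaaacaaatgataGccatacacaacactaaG

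MTATP6P1 had 15190 and 11544 counts in 2-D and 26416 and 22817 in 3-D grown cells, or 10.8 and 9.88 per 100 counts of MT-ATP6 in 2-D and 15.5 and 16.3 in 3-D grown cells. Its log2 FC of 1.65 (SE 0.06, edgeR, Benjamini-Hochberg adjusted p = 1.56e-08) was larger than that of MT-ATP6. MTND2P28 rose by 0.60 (SE 0.03), less than MT-ND2, and had 6.99 and 7.49 counts per 100 of its parent in 2-D and 5.55 and 5.71 in 3-D grown cells. MTND1P23 rose by 1.03 with 54 to 80 counts per library. MTCO1P12, with 0.513 and 0.470 counts per 100 of MT-CO1 in 2-D and 0.289 and 0.286 in 3-D grown cells, had a log2 FC of -0.022 (SE 0.06, edgeR, Benjamini-Hochberg adjusted p = 0.886). MTCO2P12 and MTCO3P12 had at most 69 counts per library and log2 FCs of -0.15 and 0.54 that did not pass, although MTCO3P12 passed without 3-D replicate 2, at 0.83. MTATP8P1 had at most 4 counts in a library. MTND4P12, on chromosome 5, was called at 0.57 and no longer passed when 2-D replicate 1, 2-D replicate 2 or 3-D replicate 1 was left out (edgeR, Benjamini-Hochberg adjusted p = 0.0953, 0.0810 and 0.0779). When the counts of each copy were added to its parent, 12 of the 13 mitochondrial proteins were called as before, with a median log2 FC of 0.75.

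The proteins that make and process mitochondrial RNA are made from nuclear genes. Of 51 genes listed for mitochondrial transcription, RNA processing, RNA stability, tRNA maturation, DNA replication and biogenesis, all 51 were tested, 1 was called higher and 4 lower, against 4.54% and 3.36% over all genes, with a median log2 FC of -0.024. With libraries scaled by their totals alone, 1 was called higher and 14 lower, and DESeq2 called 1 in each direction. Of the 9 transcription genes none was called by edgeR, with 2 at an unadjusted p below 0.05. POLRMT, the mitochondrial RNA polymerase, had 56.7 and 56.1 CPM in 2-D and 57.1 and 58.4 CPM in 3-D grown cells. TFAM, which packages mitochondrial DNA and opens its promoters, had 151 and 155 against 140.0 and 143 CPM, a log2 FC of -0.11 (edgeR, Benjamini-Hochberg adjusted p = 0.0546) that lies at the threshold. It passed at -0.17 with libraries scaled by their totals alone, at -0.11 with a block for replicate number in the design, and at both other filters on low counts. Without 3-D replicate 2 its log2 FC was -0.12. The initiation factor TFB2M and the elongation factor TEFM had log2 FCs of -0.18 and -0.095 and did not pass.

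SLIRP, which binds mitochondrial messenger RNAs together with LRPPRC and protects them, had 108 and 109 CPM in 2-D and 91.2 and 83.8 CPM in 3-D grown cells, a log2 FC of -0.31 (SE 0.04, edgeR, Benjamini-Hochberg adjusted p = 4.98e-04). LRPPRC itself had 440.2 and 438 against 414 and 421 CPM and did not pass (log2 FC -0.07). It passed without 3-D replicate 2, at -0.08, and with libraries scaled by their totals alone, at -0.14. MTPAP, the mitochondrial poly(A) polymerase, fell by 0.14, TRMT10C, a subunit of the enzyme that cuts the 5′ ends of tRNAs, fell by 0.20, and ESRRA, a nuclear receptor that activates respiratory genes, fell by 0.24, all on the log2 scale. MTPAP lost its call with each of the 4 libraries left out in turn (edgeR, Benjamini-Hochberg adjusted p = 0.0617 to 0.504). TRMT10C and ESRRA lost theirs when 2-D replicate 1, 2-D replicate 2 or 3-D replicate 2 was left out, with adjusted p of 0.205, 0.0542 and 0.111 for TRMT10C and 0.182, 0.152 and 0.0612 for ESRRA. DESeq2 called none of the 3, with adjusted p of 0.237 for MTPAP, 0.114 for TRMT10C and 0.160 for ESRRA. PPRC1, a coactivator of the PGC-1 family, was the gene of the list called higher, by 0.19 on the log2 scale (SE 0.03). Without 2-D replicate 1 and without 2-D replicate 2 the list had 2 calls in place of 5.

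The nuclear subunits of the complexes that the mitochondrial proteins join were called lower more often than higher. Of 78 listed subunits 76 were tested, and 27 fell and 1 rose in the 3-D libraries, against 3.36% lower and 4.54% higher over all genes, with 45 called lower and 0 higher when libraries were scaled by their totals alone and 42 called lower without 3-D replicate 1. In complex I all 7 mitochondrial subunits were called higher and 10 of 35 tested nuclear subunits lower, with medians of 0.59 and -0.16. NDUFB2, a membrane arm subunit, had 38.4 and 35.5 CPM in 2-D and 26.7 and 24.2 CPM in 3-D grown cells (log2 FC -0.54). In complex III MT-CYB was called higher and 2 of 9 nuclear subunits lower, among them UQCRQ at -0.49. In complex IV all 3 mitochondrial subunits were called higher and 8 of 11 nuclear subunits lower, with medians of 0.76 and -0.27, and COX8A had the most negative value, -0.58 (SE 0.07, edgeR, Benjamini-Hochberg adjusted p = 2.97e-04). In the ATP synthase, MT-ATP6 was called higher, while of 17 nuclear subunits 6 were called lower and ATP5MF higher, at 0.15. ATP5MF lost its call when libraries were scaled by their totals alone and when either 2-D library or 3-D replicate 1 was left out (edgeR, Benjamini-Hochberg adjusted p = 0.166, 0.134, 0.267 and 0.0623), and DESeq2 gave 0.187. Complex II, which has no mitochondrial subunit, had 1 of 4 genes called lower, SDHC, at -0.20, which did not pass without 2-D replicate 2 (-0.18).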

How the data were processed

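Each library has deposited counts, whole numbers for each gene that were not normalized. Per the labels and the methods, the authors depleted rRNA (KAPA RNA HyperPrep with RiboErase), trimmed paired reads with Trim Galore 0.6.3, mapped them to hg38 with HISAT2 2.1.0 and counted them with featureCounts 1.6.4 on GENCODE release 30. The strand setting and the treatment of multi-mapping reads are not given in the sources used here. A deposited table of normalized values, which also holds the authors' own comparison, was not used. Of 60564 gene identifiers, 60295 were matched to GENCODE release 44 on hg38, which gave names, positions and exon lengths, and the others held 0.121% to 0.123% of counts. Sequences were read from hg38.

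The tests used edgeR 4.0.16 (R 4.3.3) with TMM scaling, its filter on low counts (22555 genes tested), the quasi-likelihood test in its default mode, condition alone in the design and Benjamini-Hochberg adjustment over all genes tested, with calls below 0.05. Standard errors are the log2 fold change over the square root of F. Levels are given as CPM after TMM scaling, with ± for the SD. A further fit took the summed counts of the 13 mitochondrial proteins as the library scaling. The code of the fits was run on simulated counts with the same dispersion for all genes. That run does not test the spread of these libraries. Replicates were not copies of 1 library, since chi-square over its degrees of freedom was 2.27 in the 2-D pair and 3.92 in the 3-D pair. Alternatives were DESeq2 1.42.0, other scalings and filters, copies added to their parents, a replicate block and each library left out in turn, where a lone library is assumed to vary like the others. Named genes were all 37 members, 6 fixed regulators, called genes of the lists (at most 8 in each role group) and copies that were called or lie beside MTCO1P12, and examples among the subunits were chosen from these after their values were seen. The members and lists were chosen with earlier results of these data known. Python 3.11.15, pandas 2.3.3, numpy 2.4.6, scipy 1.17.1 and matplotlib 3.10.9 made tables and figures.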

Additional observations from a re-analysis of the deposited data

How the results depend on the processing

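The number of mitochondrial proteins called stayed between 11 and 13 of 13 under every alternative, and their median log2 fold change between 0.69 and 0.80. Without 3-D replicate 1, however, 1 of the 13 calls, MT-ATP8, was in the lower direction (-0.20). Of 347 values of single mitochondrial genes under the alternatives, 306 kept their direction and side of the threshold, 21 passed in addition, 11 no longer passed and 9 changed sign. Of the 9, 3 passed the test with the new sign, MT-ATP8 without 3-D replicate 1 and MT-RNR1 and MT-RNR2 without 2-D replicate 2, and 6 passed in neither fit. With each library left out, MT-ATP8 ran from -0.20 to 1.07, MT-RNR1 from -4.01 to 1.69 and MT-RNR2 from -2.90 to 2.05, and relative to the protein sum MT-ATP8 ran from -0.94 to 0.29, the latter without 3-D replicate 2. Among genes that passed in neither fit the same ranges were -1.07 to 0.41 for MT-TL1, -3.76 to 0.33 for MT-TM (called lower at its lowest), -0.13 to 0.098 for MT-TW, -0.47 to 0.63 for MT-TC, -0.26 to 0.044 for TEFM, -0.092 to 0.051 for MTCO1P12 and -0.65 to 0.19 for MTCO2P12, and relative to the protein sum -0.11 to 0.090 for MT-CO1 and -0.0038 to 0.041 for MT-ND4. POLRMT was at -0.031 with library size only, and with a sum without MT-ND5 and MT-ND6 MT-ND4 was at -0.020 and MT-CYB at -0.029. DESeq2 called 3 tRNAs in place of 7, with no adjusted p for 9 of the 15, 2 listed nuclear expression genes in place of 5 and 2 nuclear copies in place of 4, with no adjusted p for 37 of the 40. With library size only, 15 nuclear expression genes and 45 nuclear respiratory chain subunits were called in place of 5 and 28, while the median of all genes tested shifted to -0.065. Without a filter on low counts, 2 rRNAs and 8 nuclear expression genes were called. Over all genes 1782 were called, against 834 with DESeq2, 2393 with library size only, 2486 without the filter and 974 to 2643 with 1 library left out. Leaving out 1 library at a time gave 5 to 9 tRNAs, 1 to 2 rRNAs, 2 to 6 nuclear expression genes, 21 to 43 nuclear respiratory chain subunits, 3 to 5 nuclear copies and 1 to 8 mitochondrial proteins relative to their sum as calls. The causes were not tested. Replicate numbers gave no sign of pairing, with a correlation of deviations of -0.045 over 13142 genes. With the replicate block 2167 genes were called in place of 1782, 1 rRNA in place of 0 and 10 mitochondrial proteins in place of 6 relative to their sum, and of 30 mitochondrial genes 27 kept their call and 3 passed in addition. Adding the nuclear copies to their parents gives no value for the copies themselves. The 7 tRNA genes with 0 to 6 counts per library could not be compared at this depth.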
